A study of Mus musculus with 6 samples.

Results

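The SOCS family comprises Cish and Socs1 to Socs7, the 8 genes of the suppressors of cytokine signalling, and all 8 were taken by symbol from the 55335 genes of a count table. The table holds 6 libraries of total RNA from C57BL/6 bone marrow-derived macrophages (BMDMs), cells grown from mouse marrow in medium conditioned by L929 cells. Macrophages in 3 libraries received phosphate-buffered saline (PBS) and in 3 libraries lipopolysaccharide (LPS), the bacterial outer membrane component that Toll-like receptor 4 recognises, each for 1 h. The animals behind each library are not given in the labels, so the spread between libraries may be technical and p-values measure that spread alone. No genetic change was made in these cells, and the only difference between the groups was the agent added.

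SOCS proteins act as brakes on cytokine receptors. A cytokine activates Janus kinases (JAKs) on its receptor, these phosphorylate STAT transcription factors, and the STATs turn on genes that include some of the SOCS genes, closing a feedback loop. Each SOCS protein carries an SH2 domain, which binds phosphorylated tyrosines, and a C-terminal SOCS box, which recruits a Cullin-5 ubiquitin ligase. SOCS1 and SOCS3 also block JAK catalysis directly through a kinase inhibitory region, and in macrophages they are known for restraining interferon and interleukin-6 signalling respectively.

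Promoter sequence from RefSeq (GRCm38.p6) was matched for 4 of the 8 genes, Cish, Socs1, Socs3 and Socs4. Each window runs from 250 bases before the transcript start to 50 bases after it, 5′ to 3′ along the gene. All 4 matched windows are shown, and they happen to cover the 3 genes with the highest rises and, in Socs4, a gene that did not pass the fold criterion. Capitals mark matches to TTCNNNGAA, the palindrome that STAT dimers bind, in Cish and Socs3, and to the core of the interferon-stimulated response element, GAAA followed by any 2 bases and GAAA again, in Socs1. Socs4 holds neither and has no capitals. The windows lie at chr9:107296409-107296708 on the plus strand for Cish, chr16:10785487-10785786 on the minus strand for Socs1, chr11:117969317-117969616 on the minus strand for Socs3 and chr14:47276670-47276969 on the plus strand for Socs4. For Cish and Socs3 the RefSeq start lies inside the longer gene span of GENCODE M21.
Cish: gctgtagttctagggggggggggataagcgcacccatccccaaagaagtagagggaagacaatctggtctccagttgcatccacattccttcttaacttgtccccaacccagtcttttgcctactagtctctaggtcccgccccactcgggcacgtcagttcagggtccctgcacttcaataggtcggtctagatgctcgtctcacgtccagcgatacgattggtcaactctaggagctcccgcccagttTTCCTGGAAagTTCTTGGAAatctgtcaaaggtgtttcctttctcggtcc
Socs1: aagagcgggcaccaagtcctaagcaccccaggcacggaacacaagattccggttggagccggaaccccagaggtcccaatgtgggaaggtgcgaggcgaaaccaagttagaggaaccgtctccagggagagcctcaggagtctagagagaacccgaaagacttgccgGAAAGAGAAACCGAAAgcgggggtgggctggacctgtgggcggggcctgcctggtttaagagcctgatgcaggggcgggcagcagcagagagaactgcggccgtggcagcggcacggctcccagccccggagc
Socs3: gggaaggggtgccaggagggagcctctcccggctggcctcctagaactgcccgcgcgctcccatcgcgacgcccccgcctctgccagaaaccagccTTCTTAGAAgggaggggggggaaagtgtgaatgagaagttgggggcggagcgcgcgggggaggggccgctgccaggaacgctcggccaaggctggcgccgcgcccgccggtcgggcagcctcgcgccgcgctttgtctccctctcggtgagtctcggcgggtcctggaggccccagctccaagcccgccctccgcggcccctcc
Socs4: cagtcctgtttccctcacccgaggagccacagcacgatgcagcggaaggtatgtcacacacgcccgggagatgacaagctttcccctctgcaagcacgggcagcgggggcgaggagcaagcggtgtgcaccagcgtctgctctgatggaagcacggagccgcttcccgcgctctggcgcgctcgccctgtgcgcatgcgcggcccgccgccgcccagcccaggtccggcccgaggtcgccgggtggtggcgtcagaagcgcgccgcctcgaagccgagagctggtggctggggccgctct

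In Cish the palindrome occurred as TTCCTGGAA at position 1 and TTCTTGGAA at position 12, with position 1 the transcript's first base and -1 the base before it. Socs3 held a single copy, TTCTTAGAA, at position -154. Of all 32851 promoter windows searched on both strands, 8.30% held the palindrome and 0.457% held it at least 2 times. The interferon element core occurred in Socs1 at positions -83 and -77, as GAAAGAGAAA and GAAACCGAAA, which overlap. Of all windows 3.44% held at least 1 and 0.225% at least 2. None of the 4 windows matched the NF-kB consensus, the AP-1 site TGANTCA, the cyclic AMP response element TGACGTCA or TATAAA, which occurred in 8.46%, 7.81%, 1.79% and 13.6% of all windows. A match describes letters in these windows and not a bound site.

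The genes lie on 7 chromosomes of GRCm38 (GENCODE M21). Socs1 spans 16:10782240-10785536, Socs3 11:117966079-117970047 and Cish 9:107296026-107302784, which are 3297, 3969 and 6759 bases from end to end. Socs6, at 18:88665224-88927481, covers 262258 bases, against a median of 23723 for all tested protein-coding genes. Between these lie Socs4 (14:47276931-47296102), Socs5 (17:87107679-87137839), Socs2 (10:95385362-95417180) and Socs7 (11:97362551-97398542). Exons of Cish overlap the opposite-strand genes Gm17040 and Gm17041 by 261 and 479 bases. The strand setting of the counting is not given in the sources used here, and these partners had at most 3 counts in any library.

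The 6 libraries held 37787611 to 41516330 counts, so that 3 counts correspond to 0.0630 to 0.0919 CPM, counts scaled to a common library size by the TMM factors and the unit used below. All 8 macrophage markers were detected, and their summed level was 29946 to 31229 CPM in PBS and 35887 to 36245 CPM in LPS libraries. They did not move together. Cd14 went from 390.5 to 405.5 CPM in PBS to 3588 to 3674 CPM in LPS. After TMM scaling Cd68, Adgre1, Csf1r, Itgam and Lyz2 were also higher in every LPS library. These rises, and those of the macrophage and neutrophil sums, were smaller in size than the log2 shift of -0.40 under library size alone. Their direction thus depends on the scaling. Fcgr1 fell from 388.9 to 403.6 CPM to 281.3 to 287.9 CPM, and the groups overlapped for Mertk. Neutrophil markers summed to 40.8 to 43.6 and 52.7 to 56.8 CPM, with 0 to 3 counts of Ly6g, and dendritic cell markers to 1.35 to 1.63 and 4.84 to 5.88 CPM. T cell markers summed to 20.6 to 22.5 and 30.6 to 31.0 CPM, nearly all of it Cd4, with 2 to 5 counts of Cd3e, and B cell, NK cell, mast cell and erythroid lists stayed under 2 CPM. Stromal markers summed to 8.34 to 9.18 CPM in PBS and 9.08 to 11.03 CPM in LPS. Mitochondrially encoded genes took 0.970 to 1.07% of counts in PBS and 1.21 to 1.34% in LPS. The part of these shifts in the results was not tested, and in bulk RNA a change in the number of cells of a type cannot be told apart from a change per cell.

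The comparison of LPS with PBS libraries asks which SOCS genes responded within 1 h. Socs3, Cish, Socs1 and Socs2 rose and Socs6 fell, while Socs4, Socs5 and Socs7 moved by less than the fold criterion. A gene was called where edgeR's quasi-likelihood test gave an adjusted p under 0.05 and its log2 fold change was above 1 or below -1. By these criteria 5 of 8 members were called, against 20.9% of the 15687 genes tested, with 4 up (10.5% of all) and 1 down (10.4%). By the adjusted p alone all 8 passed, but so did 67.7% of all genes. Of the members 6 were higher and 2 lower in LPS, against 32.9% and 34.9% of all genes. In CPM the groups did not overlap for any of the 8, as for 70.5% of all genes, with 6 members higher (33.9% of all) and 2 lower (36.6%). The 4 genes called up are the classical cytokine-inducible members, and none of Socs4 to Socs7 was called up. The median log2 fold change was 1.18 over the 8 members and -0.01 over all genes.

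**Figure D1:**
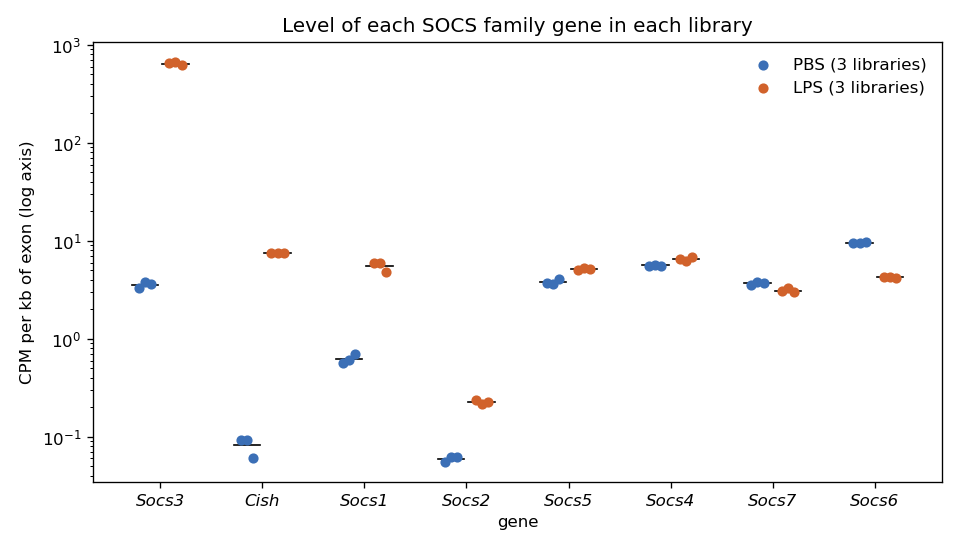
Level of each SOCS family gene in each library, as TMM-scaled CPM per kb of exon on a log axis, with 3 PBS libraries (blue), 3 LPS libraries (orange) and a bar at each group mean. Socs3 moved from 3.28 to 3.81 in PBS to 619.4 to 664.2 in LPS, and the groups are separate for each gene.

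Socs3, the inhibitor that binds gp130 and JAKs and restrains interleukin-6 signalling, had 451, 498 and 486 counts in the PBS libraries and 62985, 62674 and 60944 in the LPS libraries. Every LPS library lay far above every PBS library, and the libraries of a group were close to each other. Its level rose from 10.3 ± 0.793 to 1863 ± 65.9 CPM (SD, n = 3 each), 180.2-fold in the fit (log2 fold change 7.49 ± 0.06 SE, edgeR quasi-likelihood adjusted p = 5.45e-24). Of the 15687 genes tested, it ranked as the 62nd highest log2 fold change.

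Cish encodes CIS, which competes with STAT5 for docking sites on receptors of the growth hormone and interleukin-2 type. It had 28, 27 and 18 counts in PBS and 1636, 1582 and 1658 in LPS libraries. The groups were widely separated, although its PBS level rests on few counts and the library with 18 was the lowest. The level went from 0.525 ± 0.117 to 48.6 ± 0.153 CPM (SD, n = 3 each), 92.0-fold in the fit (log2 fold change 6.52 ± 0.09 SE, edgeR quasi-likelihood adjusted p = 1.47e-20), and the gene ranked 102nd.

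Socs1 encodes the strongest known inhibitor of interferon gamma signalling in the family. Counts were 78, 80 and 94 in PBS and 577, 565 and 481 in LPS libraries. LPS replicate 3 was the lowest of its group, yet above every PBS library. The gene rose from 1.82 ± 0.203 to 16.2 ± 1.80 CPM (SD, n = 3 each), 8.92-fold (log2 fold change 3.16 ± 0.11 SE, edgeR quasi-likelihood adjusted p = 2.15e-14), and ranked 454th.

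Socs2, a regulator of growth hormone signalling, had 25, 27 and 27 counts in PBS and 76, 67 and 73 in LPS libraries. It was the member with the fewest counts in LPS, but the groups did not overlap. Its level rose from 0.569 ± 0.0388 to 2.15 ± 0.106 CPM (SD, n = 3 each), 3.77-fold (log2 fold change 1.92 ± 0.18 SE, edgeR quasi-likelihood adjusted p = 3.54e-08), and it ranked 872nd.

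Socs6, whose product has been linked to insulin receptor and KIT signalling, was the only member called down. It had 5163, 4847 and 5089 counts in PBS and 1614, 1583 and 1624 in LPS libraries, with no overlap. The level fell from 108.7 ± 1.52 to 48.1 ± 0.392 CPM (SD, n = 3 each), 2.26-fold lower (log2 fold change -1.18 ± 0.04 SE, edgeR quasi-likelihood adjusted p = 1.87e-15). A lower log2 fold change was found for 8.04% of all genes tested. In the span of Socs6 the annotation places 3 processed pseudogenes, none overlapping its exons and each with at most 3 counts in a library.

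The remaining 3 members stayed within a log2 fold change of 1, and their direction needs the scaling beside it. TMM factors, which multiply the library sizes, were 1.15 in PBS and 0.864 to 0.872 in LPS libraries. With library size as the sole scaling, the median over all genes was -0.42 on the log2 scale, a shift of -0.40. Values below are therefore also given relative to the median of all genes under each scaling.

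Socs4 and Socs5 form a closely related pair linked to the epidermal growth factor receptor. Counts of Socs4 were 1821, 1760 and 1776 in PBS and 1507, 1382 and 1610 in LPS libraries, lower in LPS. After TMM scaling the order turned, with 38.2, 39.0 and 38.5 CPM in PBS and 44.9, 42.3 and 47.3 CPM in LPS. The log2 fold change of Socs4 was 0.22 ± 0.05 SE (edgeR quasi-likelihood adjusted p = 0.000369) with TMM, 0.08 with upper quartile scaling (adjusted p = 0.148) and -0.19 with library size alone (adjusted p = 0.00141). Relative to the median of all genes it was 0.23 under each of the 3 scalings. The direction of Socs4 thus depends on the reference chosen.

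Socs5 had 1146, 1048 and 1209 counts in PBS and 1088, 1105 and 1139 in LPS libraries, ranges that overlap before scaling. In CPM the libraries were separate, at 24.1, 23.2 and 26.2 in PBS and 32.4, 33.9 and 33.5 in LPS. Its log2 fold change was 0.44 ± 0.05 SE (edgeR quasi-likelihood adjusted p = 6.58e-07) with TMM and 0.04 (adjusted p = 0.527) with library size alone, and 0.45 relative to the median of all genes under both.

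Socs7, known for binding signalling adaptors such as NCK, had 1219, 1249 and 1240 counts in PBS and 747, 776 and 735 in LPS libraries. It was lower in every LPS library on either scale. The level was 26.7 ± 1.03 CPM in PBS and 22.5 ± 1.12 CPM in LPS (SD, n = 3 each), with a log2 fold change of -0.24 ± 0.05 SE (edgeR quasi-likelihood adjusted p = 0.000584), and -0.65 with library size alone. Relative to the median of all genes it was -0.23 under both.

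**Figure D2:**
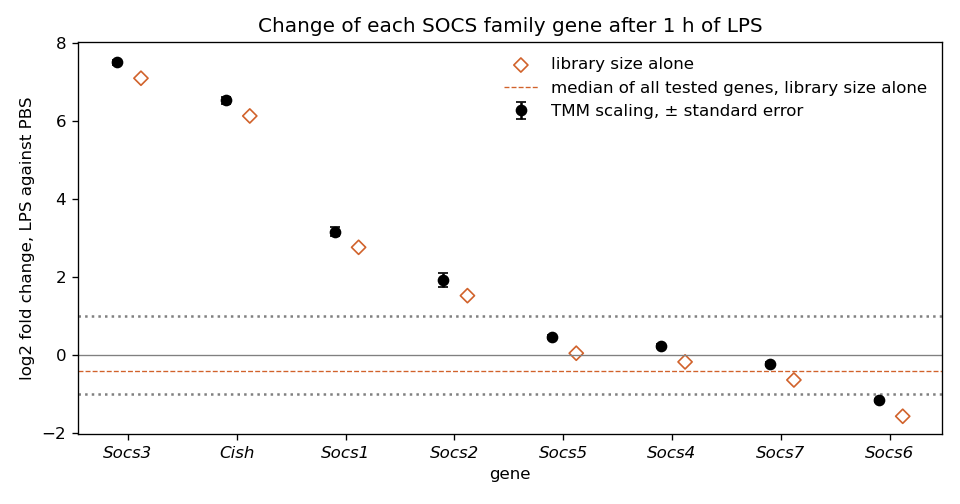
Log2 fold change of each SOCS family gene, LPS against PBS, with TMM scaling (black, bars are the standard error) and with library size alone (orange diamonds), with dotted lines at 1 and -1 and a dashed line at the median of all tested genes under library size alone. Socs4 is at 0.22 with TMM and at -0.19 with library size alone, whereas the 5 called genes lie beyond the dotted lines under both.

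Levels of different genes were compared only as CPM per kb of annotated exon. In PBS the order was Socs6 at 9.58 ± 0.134, Socs4 at 5.61 ± 0.0526, Socs5 at 3.82 ± 0.241, Socs7 at 3.68 ± 0.142 and Socs3 at 3.58 ± 0.274 (SD, n = 3 each). The ranges of Socs5 and Socs7 overlapped, as did those of Socs7 and Socs3, so these neighbours cannot be ordered. Socs1 followed at 0.624 ± 0.0699, and Cish at 0.0818 ± 0.0182 and Socs2 at 0.0597 ± 0.00407 closed the order. The ranges of Cish and Socs2 overlapped too.

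In LPS the order was led by Socs3 at 644.3 ± 22.8 CPM per kb, with Cish next at 7.58 ± 0.0238. Then came Socs4 at 6.52 ± 0.361, Socs1 at 5.58 ± 0.620 and Socs5 at 5.18 ± 0.116, of which Socs1 and Socs5 overlapped. Socs6, the highest of the family in PBS, was at 4.24 ± 0.0345, above Socs7 at 3.10 ± 0.154 and Socs2 at 0.226 ± 0.0111. Places in the middle of the order depend on the gene length used. With the longest annotated transcript in place of all exons, Socs6 was at 7.97 CPM per kb and took place 3 in LPS, while Socs3 and Cish kept places 1 and 2.

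Summed over the 8 genes, the level per kb was 27.0 ± 0.600 in PBS and 676.7 ± 23.2 in LPS (SD, n = 3 each), a 25.0-fold ratio that was 1.38-fold without Socs3. With library size alone these ratios were 18.9-fold and 1.04-fold, so the rise of the other 7 genes together rests on the scaling. Socs6 made up 35.4% ± 0.700, Socs4 20.8% ± 0.405, Socs5 14.1% ± 0.746, Socs7 13.6% ± 0.373 and Socs3 13.2% ± 0.820 of the sum in PBS. These PBS shares depend on the gene length used. With the longest transcript Socs6 was at 47.9%, Socs4 at 14.9%, Socs5 at 14.0%, Socs3 at 10.8% and Socs7 at 10.1%. In LPS Socs3 alone made up 95.2% ± 0.107, with Cish next at 1.12% ± 0.0413. With the length of the longest transcript, the share of Socs3 in LPS was 94.6%. With that of the longest coding transcript it was 93.8%, and Cish was at 2.19% of the sum and 17.1 CPM per kb. In plain counts the family took 0.0239 to 0.0248% of each PBS library and 0.175 to 0.185% of each LPS library.

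**Figure D3:**
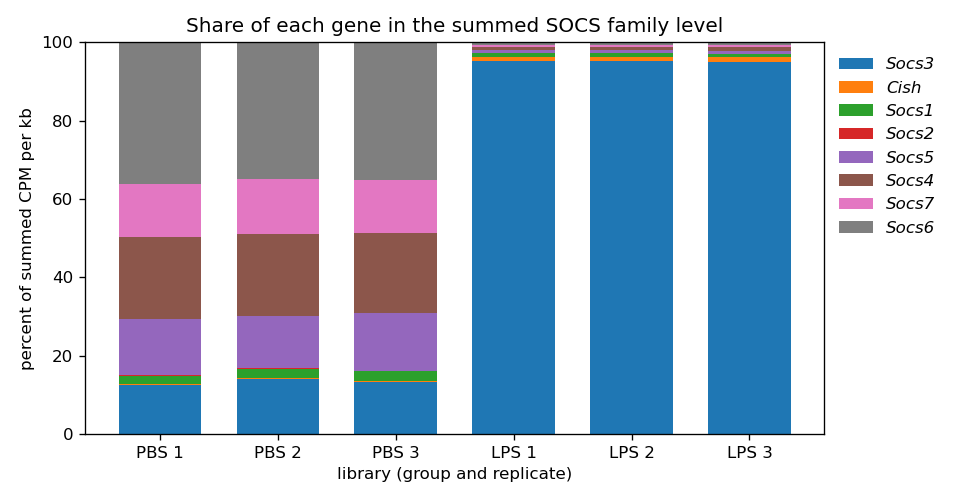
Share of each gene in the summed CPM per kb of the SOCS family, in percent, for each of the 3 PBS and 3 LPS libraries. In PBS 5 genes each hold over 10% of the sum, and in LPS Socs3 holds 95.2% on average.

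The other genes of the pathway were counted by role, in the same fit over all genes. Among 25 cytokines that signal through JAKs, 15 were tested and 14 were called up, beside 10.5% of all genes. That count is no support for a rise of the list, since 8 of the 15 had fewer than 10 counts in some PBS library and entered the test through their LPS level. Their fitted values also enter the list's median of 6.50. Of the 7 ligands with at least 10 counts in every library, 6 were called up, beside 8.27% of all genes under that filter, and the median was 2.83. Csf3, the granulocyte growth factor whose receptor is controlled by SOCS3, had no counts in PBS and 673 to 713 in LPS libraries, at least 318.5-fold higher against a floor of 3 counts per library. Il6 had 1 to 4 counts per library in PBS and 5293 to 5885 in LPS, a ratio of 3362 with a 95% counting interval of 1631 to 8362. Il23a, a subunit of interleukin-23, had 3 counts over the PBS libraries together and a ratio of 1796 (614.2 to 8715), and Csf2, the granulocyte-macrophage growth factor, had 2 and a ratio of 1409 (389.5 to 11642). These intervals cover counting error only. Without PBS replicate 3 the fitted log2 fold change moved from 10.62 to 11.43 for Il23a and from 11.63 to 12.22 for Il6.

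Of 27 receptor genes 23 were tested and 1 was called, beside 20.9% of all genes. This was Il15ra, the interleukin-15 binding subunit, at a log2 fold change of 1.26 ± 0.08 SE (edgeR quasi-likelihood adjusted p = 1.05e-10). By adjusted p alone 16 were higher (32.9% of all genes) and 4 lower (34.9%), and the median was 0.44. With library size alone the median of all genes shifts by -0.40, nearly the size of this receptor median. The lean to higher values therefore rests on the scaling. Among receptors known to be held in check by SOCS proteins, Il6st, which encodes gp130, had a log2 fold change of -0.39 ± 0.03 SE. Csf3r was at 0.19 ± 0.03, Ifngr1 at 0.65 ± 0.03 and Ifnar1 at 0.85 ± 0.04 on the same scale, all under the fold criterion. Csf2rb, the shared beta chain for granulocyte-macrophage growth factor, was at 0.69 ± 0.03, but shares sequence with Csf2rb2 and its counts are uncertain. With library size alone Csf3r turned to -0.21, Il15ra, at 0.86, was no longer called, and Il12rb1, a subunit of the interleukin-12 receptor, was called down at -1.0002, barely past the criterion. Ghr, the growth hormone receptor, had 1 to 10 counts per library and was not tested.

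Of the 11 JAK and STAT genes, 3 were called up (10.5% of all genes) and 1 down (10.4%), with a median log2 fold change of 0.11. Jak2, a kinase used by gp130 and growth factor receptors, rose from 56.7 ± 1.13 to 561.2 ± 7.74 CPM (SD, n = 3 each; log2 fold change 3.31 ± 0.04 SE, edgeR quasi-likelihood adjusted p = 3.68e-22). Stat4, the mediator of interleukin-12 signals, had a log2 fold change of 2.18 ± 0.09 SE and Stat5a, a main activator of Cish, one of 1.22 ± 0.05 SE. Stat2, a component of the complex that type I interferons activate, fell from 154.5 ± 5.79 to 52.5 ± 2.83 CPM (log2 fold change -1.56 ± 0.04 SE, edgeR quasi-likelihood adjusted p = 4.85e-16). With library size alone Stat5a was at 0.81 and no longer called.

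Genes for the proteins that work with the SOCS box were called about as often as all genes. Of 9 genes for the Cullin-5 and Cullin-2 ligases and their NEDD8 conjugation, 2 were called up and none down, beside 20.9% of all genes called in either direction, with a median log2 fold change of 0.05. Both act on Cullin-5: Arih2, an ariadne-type ligase that works with it, had a log2 fold change of 2.21 ± 0.03 SE (63.7 ± 1.56 to 294.6 ± 3.22 CPM), and Ube2f, its NEDD8-conjugating enzyme, one of 1.51 ± 0.04 SE (41.5 ± 1.61 to 118.3 ± 1.86 CPM). Of 29 other genes whose products carry a SOCS box, 20 were tested, 1 was called up (10.5% of all genes) and 3 down (10.4%), with a median of -0.24. Spsb1, an adaptor for inducible nitric oxide synthase, was the one called up, at 3.51 ± 0.22 SE, with 10 to 22 counts in PBS and 112 to 168 in LPS libraries. The 3 called down were Rab40c, a small GTPase, at -1.84 ± 0.07 SE, Spsb2 at -1.20 ± 0.06 SE and Asb8 at -1.12 ± 0.06 SE, of which Asb8 did not pass a test against a log2 fold change of 1. With library size alone 7 genes of this list were called, 1 up and 6 down. Under that scaling 1213 of the 15687 genes tested were called up and 2964 down.

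Of 13 inhibitors of JAK-STAT signalling outside the SOCS family, 1 was called, beside 20.9% of all genes, and this was Ptpn2, a phosphatase that acts on JAKs. Its log2 fold change was 1.17 ± 0.06 SE (20.1 ± 1.46 to 45.1 ± 3.04 CPM, edgeR quasi-likelihood adjusted p = 4.88e-12), and 0.76 with library size alone, which is under the criterion. None was called down with TMM, and the median was -0.04. With library size alone Pias3, an inhibitor of STAT proteins, was called down at -1.14.

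**Figure D4:**
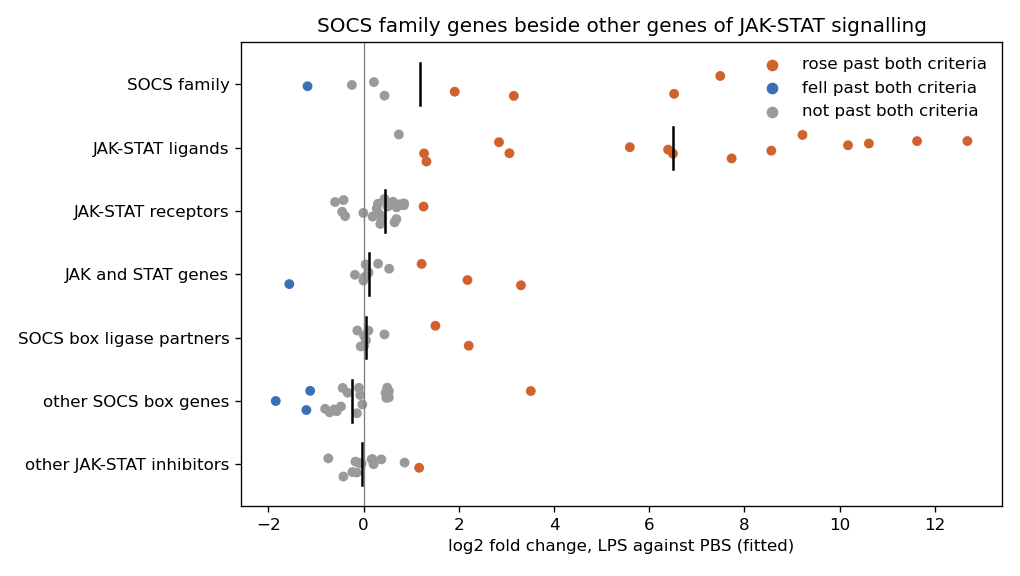
Fitted log2 fold changes, LPS against PBS, for the tested genes of 7 lists, with genes called up in orange, called down in blue, others in grey and the median of each list as a black bar. The ligands reach above 10, where fitted values rest on few or no PBS counts, while the medians of the 5 other lists outside the SOCS family lie between -0.24 and 0.44.

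Chromosomal neighbours were compared because position played no part in choosing the genes. Of the 16 nearest protein-coding genes, 1 on each side of each member, 13 were tested and 1 was called, next to a background of 20.9%. That gene was Mapkapk3, a kinase downstream of p38, 6149 bases from Cish, which rose from 61.2 ± 2.70 to 178.2 ± 5.12 CPM (SD, n = 3 each; log2 fold change 1.54 ± 0.04 SE, edgeR quasi-likelihood adjusted p = 1.36e-16). On the other side of Cish, Hemk1 had a log2 fold change of -0.39 ± 0.11 SE. Beside Socs3, Pgs1 was at 0.77 ± 0.04 and Tha1 at 0.63 ± 0.09, both under the criterion, against 7.49 for Socs3 itself. Clec16a beside Socs1 was at -0.04 ± 0.05, and Tnp2 on its other side had no counts. Around Socs2, Cradd was at -0.08 ± 0.09 and Mrpl42 at -0.53 ± 0.07.

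Around the other members no tested neighbour was called with TMM scaling. Wdhd1 starts 74 bases from Socs4 on the opposite strand and had a log2 fold change of -0.31 ± 0.06 SE, while Mapk1ip1l on the other side was at 0.51 ± 0.04. Beside Socs5, Cript was at 0.17 ± 0.05, turning to -0.24 with library size alone, and Mcfd2 at 0.48 ± 0.03. Arhgap23 beside Socs7 was at -0.68 ± 0.07, with -1.09 under library size alone, and Rttn beside Socs6 at -0.18 ± 0.05. Gpr179 had 4 to 9 counts and Gm5096 none, so neither was tested.

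**Figure D5:**
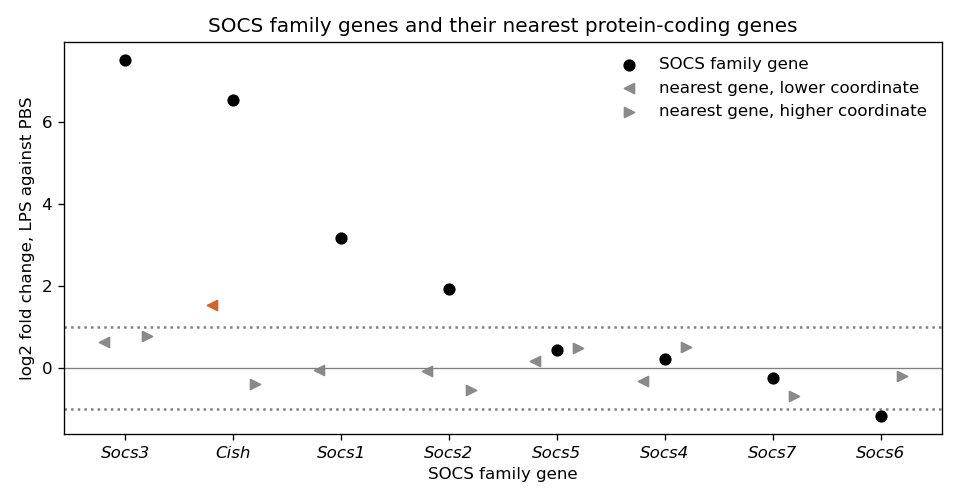
Log2 fold change, LPS against PBS, of each SOCS family gene (black circles) and of its tested nearest protein-coding genes at lower (left triangles) and higher (right triangles) coordinates, with called neighbours in orange and dotted lines at 1 and -1. Mapkapk3 beside Cish, at 1.54, is the only neighbour beyond the dotted lines.

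The genes whose profiles lay nearest to those of Socs3 and Socs6 were found by Euclidean distance between centred log2 CPM values over the 6 libraries. Nearest to Socs3 were Dusp5 and Dusp2, phosphatases that switch off MAP kinases, and Nr4a1, an orphan nuclear receptor, at distances of 0.116, 0.189 and 0.231. Their log2 fold changes were 7.44, 7.39 and 7.33, beside 7.49 for Socs3. Nearest to Socs6 were Pip4p1, a phosphoinositide phosphatase, Zbtb37 and Plekhf2, at distances of 0.0576, 0.0593 and 0.0681 and log2 fold changes of -1.16, -1.14 and -1.18. With 6 libraries in 2 groups, such likeness rests almost wholly on the size of the change between the groups.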

How the data were processed

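Total RNA of 6 BMDM libraries was sequenced, 3 PBS and 3 LPS, grouped by the treatment given in the labels. The authors prepared them with a stranded total RNA kit with globin depletion, aligned 101 bp paired-end reads to GRCm38 with HISAT2 2.1.0, used SAMtools 1.17 and FastQC 0.11.9, and deposited raw counts per gene from featureCounts 2.0.0. The annotation release, strand setting and treatment of multimapping reads are not given in the sources used here. Of 55335 identifiers, 55154 matched GENCODE M21 without the version suffix, and all 8 members matched and passed the filter.

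Counts were tested in R 4.3.3 with edgeR 4.0.16 (filterByExpr, TMM, quasi-likelihood test, Benjamini-Hochberg adjustment over 15687 genes). Standard errors were derived from the F statistic. CPM are TMM-scaled, and levels per kb use all annotated exons. Totals were 37787611 to 41516330 counts per library, and the common biological coefficient of variation was 0.0426. Counting intervals and the floor of 3 counts cover counting error only, as reads carry no molecular identifiers. No pair of libraries was identical. LPS replicate 3 stood furthest from its group, with a chi-square per degree of freedom of 13.9 against replicate 1 and 20.5 against replicate 2. The value was 5.44 between LPS replicates 1 and 2, and 5.79 to 7.21 among PBS libraries.

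The labels give both groups batches 1, 2 and 3, equal to the replicate numbers, so these pair the samples. Deviations of same-numbered libraries correlated at -0.0139, 0.0822 and 0.0387, and those of differently numbered libraries at -0.0817 to 0.0446. The model had no batch term, as in the study's methods, and a replicate block was tried beside it.

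Alternatives were 3 other scalings, 2 other filters, DESeq2 1.42.0, limma 3.58.1 (voom), the block, no top 10 genes by count, a test against a log2 fold change of 1, each library left out and, for levels, other gene lengths, of which the coding transcript was added after the data were seen. On simulated counts for LPS against PBS (15214 genes tested), edgeR recovered 200 of 200 genes that had been shifted by 2 on the log2 scale. The members, lists and naming rule were chosen with earlier results of these data known. Named were all members, up to 4 called genes of each list with the highest absolute log2 fold change and a mean of at least 20 counts, 6 receptors under SOCS control, nearest protein-coding genes, and the 3 nearest profiles to the members with the highest rise and deepest fall. With 3 libraries against 3, an exact permutation test cannot go below 0.1. Il12rb1, Pias3, Ebi3 and Il7 are named outside this rule, after their values were seen. Promoters of Socs2, Socs5, Socs6 and Socs7 were not analysed here.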

Additional observations from a re-analysis of the deposited data

How the results depend on the processing

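The 5 calls among the 8 SOCS genes held under all 16 alternatives, with 4 up and 1 down each time, including each library left out. Without 1 library, log2 fold changes ran from 7.43 to 7.54 for Socs3, 6.35 to 6.62 for Cish, 3.08 to 3.25 for Socs1, 1.86 to 1.95 for Socs2 and -1.18 to -1.17 for Socs6, and the genes past the criteria numbered 3370 to 3420 against 3277. The replicate block gave 3276 genes and changed no other call or count by over 1.5 times. The summed SOCS level per kb in LPS ran from 666.6 to 689.4 without 1 library, and was 771.1 with the longest transcript, 778.3 with the coding transcript and 588.1 with library size alone, against 676.7. The LPS over PBS ratio of the sum was 20.5 with the longest transcript and 20.6 with the coding transcript, against 25.0. Without Socs3 it was 1.23 and 1.44, against 1.38. A filter of 10 counts in every library left 2168 genes and 6 ligands past the criteria, since it drops genes that are near 0 in PBS. Library size alone gave 4177 genes, 1213 up and 2964 down against 1653 and 1624 with TMM. Among the 48 named genes it reversed Socs4 (-0.19), Csf3r (-0.21) and Cript (-0.24). It also called 7 other SOCS box genes against 4 and 2 neighbours against 1, by gaining Arhgap23 (-1.09), and lost Il15ra (0.86), Stat5a (0.81), Ptpn2 (0.76), Ebi3 (0.87) and Il7 (0.92), which left 12 ligands. Il12rb1 (-1.0002) and Pias3 (-1.14) were then called down, so the receptor and inhibitor lists still held 1 call each. Its median over all genes lies at -0.42, so each of these moved with it. Asb8 was lost when tested against a log2 fold change of 1. Among the values of the 48 named genes under the 16 alternatives, 756 kept direction and call, 4 lost the call, 1 gained it and 3 reversed. Named ligands dropped by the filter of 10 counts have no value there. Depth limits Cish and Socs2 in PBS, at 18 to 28 counts.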

Other observations

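Messages that cells turn over quickly often carry AU-rich elements in the 3′ untranslated region (UTR). In the main coding transcript of each SOCS gene, the extended element TATTTAT occurred 3 times in Cish, 2 times in Socs3, 1 time in each of Socs2, Socs4 and Socs5, and not in Socs1, Socs6 or Socs7. Among tested protein-coding genes with such a UTR, 43.2% of those called up, 22.8% of those called down and 28.8% of those not called held at least 1 copy, and 29.6% of all. The shorter ATTTA occurred 17 times in Socs4, whose UTR is 5182 bases long, 10 times in Socs6, 5 times in Socs7, 4 times in both Socs3 and Socs5, 3 times in Cish, 2 times in Socs2 and not in Socs1. Per kb of UTR it was also highest in Socs4, at 3.28, while Socs7, with 5184 bases, had 0.965. Among all tested protein-coding genes with such a UTR, 68.9% held at least 1 ATTTA, with a median of 1.30 per kb. The median UTR length was 1392 bases among genes called up and 1123 among those called down, and no test of the shares was made.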
